A study of Mus musculus with 9 samples.

Results

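The mitochondrial carriers of the Slc25 family were taken as the protein-coding genes whose symbol is Slc25a followed by a number, and 47 of the 35275 genes in the authors' table met this rule. The rule reads only the symbol and the gene type. Mouse embryonic fibroblasts (MEFs, fibroblasts grown from mouse embryos) of the C57Bl/6 strain were kept in iso-osmolar medium or were moved for 3 h to medium with 200 mM or 300 mM added sucrose, which gave 500 mOsm (low intensity hyperosmotic stress) or 600 mOsm (high intensity). All 3 groups were cultured wild type cells in the same serum-containing DMEM, and no knockdown or other agent was used in them. Each treatment had 3 libraries of poly-T selected mRNA, and the labels do not say whether these came from separate cultures, so that p-values measure only the spread between these libraries, which may be technical.

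Slc25 proteins are small carriers, nearly all of them in the inner mitochondrial membrane, that exchange nucleotides, keto acids, amino acids, cofactors and metal ions between the cytosol and the matrix. They are encoded in the nucleus, made in the cytosol and inserted by the TIM22 machinery, and without them the respiratory chain, the malate-aspartate shuttle and the synthesis of heme and iron-sulfur clusters in the matrix are cut off from the rest of the cell. Raised osmolarity draws water out of the cell, and the cell answers by taking up and making compatible osmolytes.

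The libraries held 21716042 to 26740832 counts on genes, and a floor of 3 counts was equal to 0.112 to 0.138 CPM (counts relative to the library total, scaled by TMM), which covers counting error only. The summed CPM of 9 fibroblast markers was 20200 to 21400 in iso-osmolar medium, 20200 to 21100 at 500 mOsm and 22800 to 24600 at 600 mOsm, most of it from Col1a1, Fn1, Vim and Col1a2. Of 8 tested fibroblast markers 1 was higher and 2 were lower at 500 mOsm (12.5% and 25.0%, beside 13.2% and 14.8% of all genes). At 600 mOsm 3 were higher (Col1a1, Col1a2 and Pdgfrb) and 2 lower (Col3a1 and Pdgfra), 37.5% and 25.0%, beside 15.1% and 20.0%. Dcn, a collagen-binding proteoglycan of fibroblasts, was at 0 in the iso-osmolar libraries. Summed CPM of 4 endothelial markers was 0.778 to 0.900 in iso-osmolar medium, 12.0 to 13.4 at 500 mOsm and 2.13 to 3.18 at 600 mOsm, with Kdr at 0 in iso-osmolar medium. Most of this was Pecam1, with mean CPM of 0.279, 11.1 and 1.67, while Cdh5 had 0.554, 0.568 and 0.751. Kdr and Tek were also highest at 500 mOsm, with mean CPM of 0, 0.353 and 0.0516 for Kdr and 0.0152, 0.480 and 0.0547 for Tek. For 4 epithelial markers the summed CPM was 0.0455 to 0.164, 3.47 to 3.69 and 0.134 to 0.209. Nearly all of the 500 mOsm value came from Cdh1 (mean 3.47 CPM), with Epcam at 0 in iso-osmolar medium and Krt5 at 0 in all 9 libraries. For 4 leukocyte markers the sum was 12.1 to 12.9, 15.7 to 17.1 and 11.3 to 12.1, most of it from Csf1r (mean 11.2, 14.55 and 9.92 CPM). The part of these markers in the results on carriers was not tested. In such bulk RNA fewer cells of a type and less RNA per cell cannot be told apart.

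Of the 47 carriers, 41 had enough counts to be tested, against 13082 of all genes. Against iso-osmolar medium, 5 carriers were higher and 6 were lower at 500 mOsm, 12.2% and 14.6% of those tested, beside 13.2% and 14.8% of all genes tested. At 600 mOsm 6 were higher and 9 were lower, 14.6% and 22.0%, beside 15.1% and 20.0% of all genes. Among the 9, Slc25a18 passed the filter on low counts only through the iso-osmolar libraries, where it was high, and without it 8 were lower. Between the intensities 3 carriers were higher and 3 were lower at 600 than at 500 mOsm, 7.32% in each direction, beside 11.9% and 17.2% of all genes. A carrier was called where the p-value of edgeR's quasi-likelihood test, adjusted by Benjamini-Hochberg over the 13082 genes, was under 0.05, and this adjusted p is the one given throughout. The shares of carriers called thus lay close to those of all genes in both comparisons with iso-osmolar medium and below them between the intensities, and 21 of the 41 carriers passed the threshold in no comparison. Their median log2 fold change was -0.01 at 500 mOsm, -0.04 at 600 mOsm and -0.03 between the intensities, where all genes tested had medians of 0.01, 0.01 and 0.01. The 3 comparisons share their libraries in pairs and are not independent of each other.

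**Figure D1:**
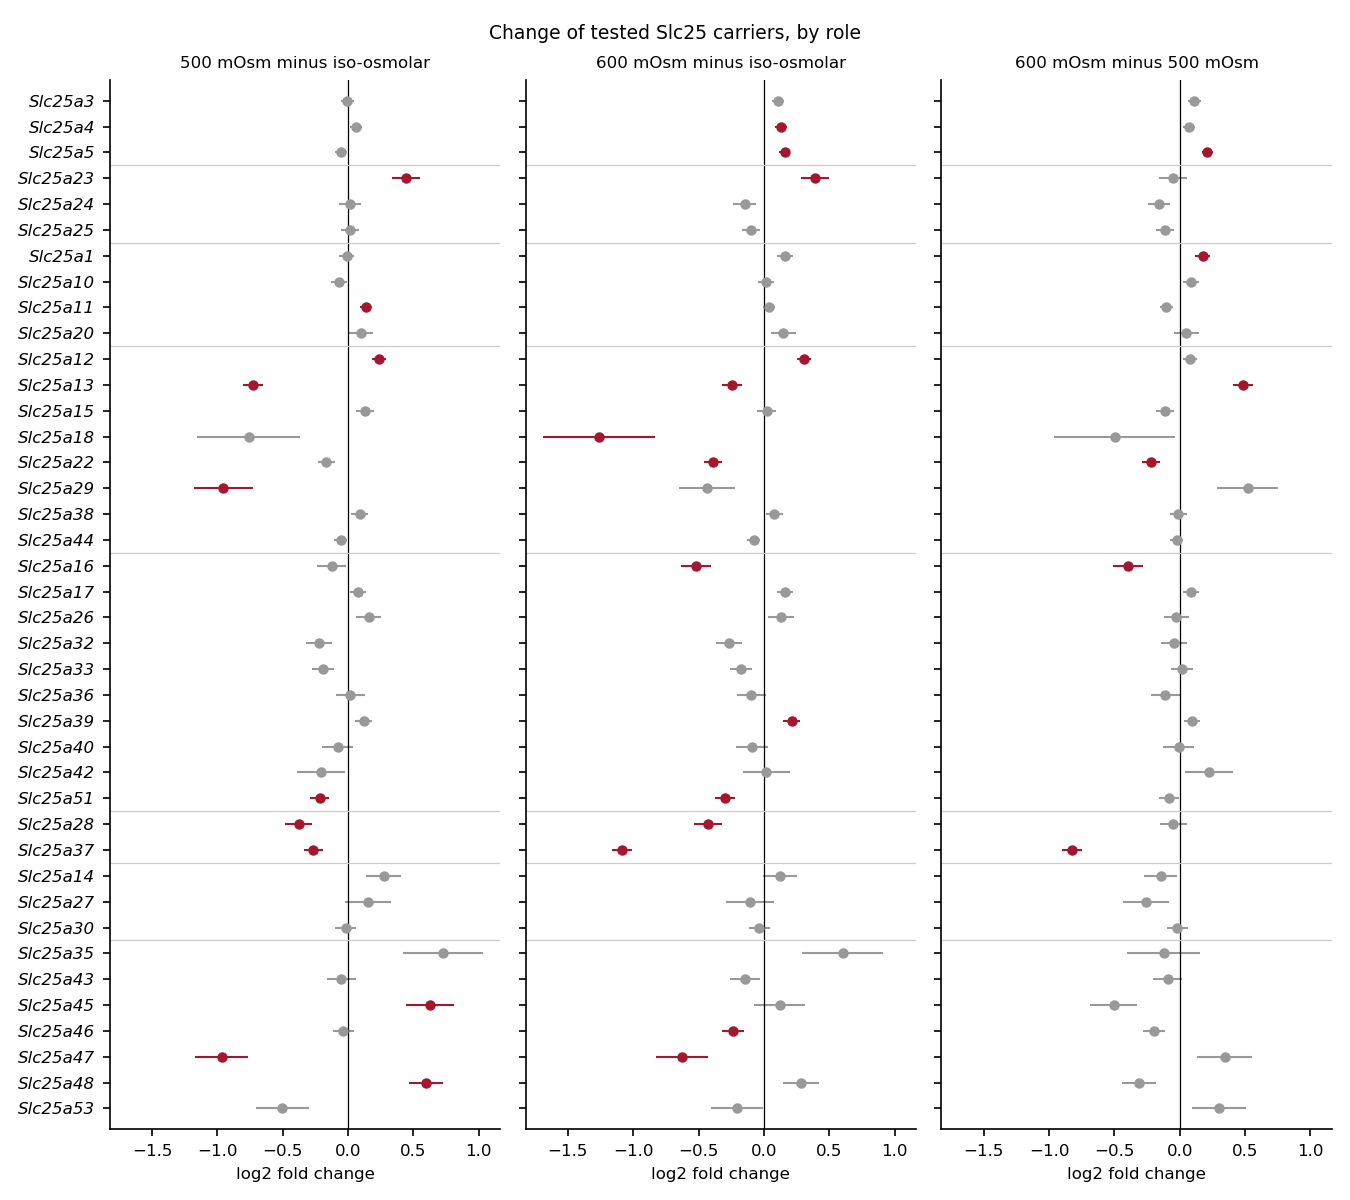
Log2 fold change of 40 of the tested carriers (horizontal axis, with the standard error as a bar) at 500 mOsm against iso-osmolar, at 600 mOsm against iso-osmolar and at 600 against 500 mOsm. Red points have an adjusted p under 0.05 and grey points do not, and grey lines separate the role groups. Most points lie close to 0, and Slc25a37 at 600 mOsm (-1.09) and Slc25a13 at 500 mOsm (-0.73) are far from it with short bars.

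The carriers spanned a wide range of levels. FPKM, counts per length of the gene and per library total as deposited by the authors, allows levels to be compared between genes. In iso-osmolar medium Slc25a5 led with 559 ± 14.2 FPKM (SD, n = 3), followed by Slc25a39 with 199 ± 8.26 and Slc25a4 with 175 ± 5.92. The libraries of Slc25a39 lay between 189 and 206 FPKM and those of Slc25a4 between 171 and 182, so that these neighbours in the order did not overlap. Slc25a3 (124 FPKM) and Slc25a1 (91.9 FPKM) came next. Slc25a5, Slc25a39, Slc25a4 and Slc25a3 together made up 67.5% to 71.0% of the summed FPKM of the family in each library. At the other end, Slc25a35 had 0.140 FPKM. The family took 0.303% to 0.322% of the counts of a library, and its summed FPKM was 1538 to 1575 in the iso-osmolar libraries, 1533 to 1570 at 500 mOsm and 1640.5 to 1663 at 600 mOsm. The sum was thus higher in each 600 mOsm library than in any other library, by a small margin. The share of Slc25a5, Slc25a39, Slc25a4 and Slc25a3 in it was 67.5% to 68.1% in iso-osmolar medium and 70.1% to 71.0% at 600 mOsm. The median log2 fold change of the carriers at 600 mOsm was -0.04, so the sum reflects mainly these abundant genes.

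**Figure D2:**
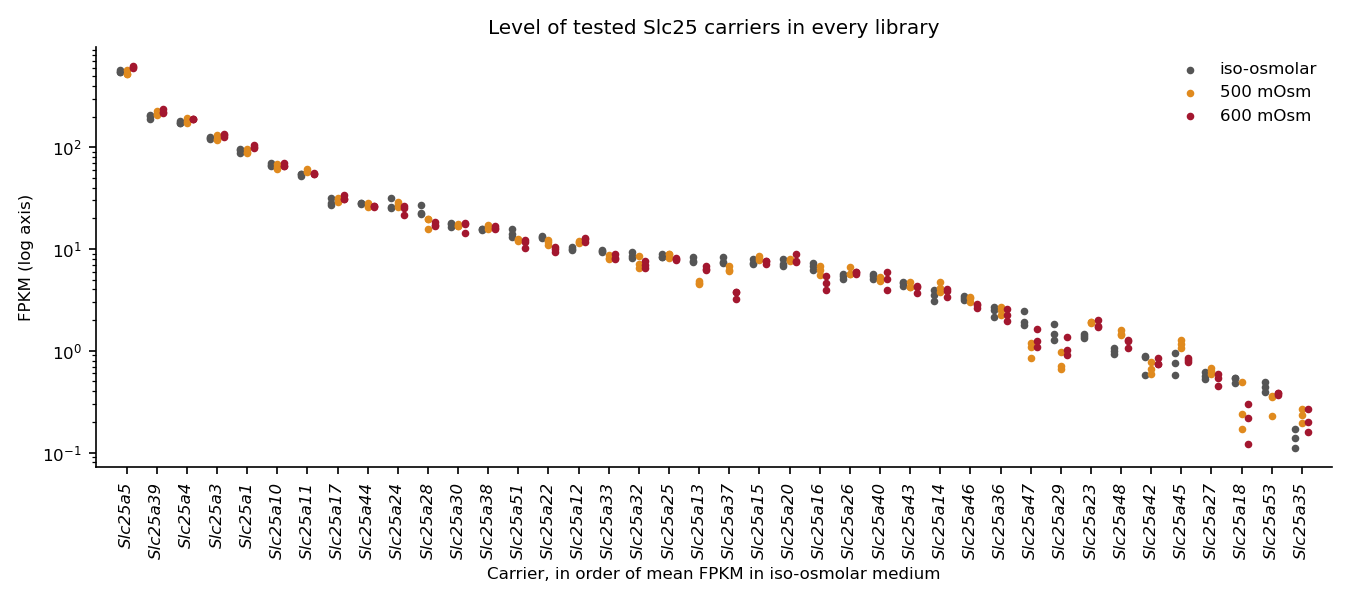
FPKM (log axis) of 40 of the tested carriers in each of the 9 libraries, in order of their mean in iso-osmolar medium, with grey, orange and red points for iso-osmolar, 500 mOsm and 600 mOsm. Levels run from above 500 FPKM for Slc25a5 to under 0.3 FPKM for Slc25a35, and for most carriers the 3 colours lie on top of each other.

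Of the abundant carriers, Slc25a5 and Slc25a4 exchange adenine nucleotides and Slc25a3 brings in phosphate for ATP synthesis. Slc25a5 (ENSMUSG00000016319, mm10 chrX:36795651-36798807), the ADP/ATP translocase of most proliferating cells, had 706, 691 and 674 CPM in the iso-osmolar libraries, 645, 656 and 695 at 500 mOsm and 759, 755 and 798 at 600 mOsm. The 600 mOsm libraries were above all others, while the iso-osmolar and 500 mOsm libraries overlapped. Slc25a5 at 600 mOsm exceeded both iso-osmolar medium (log2 fold change 0.16 ± 0.044 (SE), adjusted p = 0.0152) and 500 mOsm (0.21 ± 0.044, adjusted p = 0.00328). With the trend of counts on gene length removed from each library neither call was kept. The call against iso-osmolar medium was also lost without iso-osmolar replicate 3 or 600 mOsm replicate 3, and with the GC content and length trends removed together with the replicate block. The table also lists 4 processed pseudogenes that share at least 100 bases with Slc25a5 at 95% identity or more, and they held 279 counts in all 9 libraries beside 155846 for Slc25a5.

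Slc25a4 (ENSMUSG00000031633, chr8:46206797-46211284), the ADP/ATP translocase of heart and muscle, had 346, 332 and 327 CPM in iso-osmolar medium, 369, 338 and 342 CPM at 500 mOsm and 367, 359 and 374 CPM at 600 mOsm. Its 600 mOsm libraries were above the iso-osmolar ones, and its 500 mOsm libraries overlapped both. The rise at 600 mOsm was 0.13 ± 0.047 on the log2 scale (adjusted p = 0.0465) and lost its call in 16 of the 22 alternative settings tried. Within a library the ratio of Slc25a4 to Slc25a5 FPKM was 0.310 to 0.316 in iso-osmolar medium, 0.317 to 0.369 at 500 mOsm and 0.302 to 0.312 at 600 mOsm. Slc25a3, the phosphate carrier of the inner membrane, did not pass the threshold (0.11 ± 0.047 at 600 mOsm, adjusted p = 0.101). Slc25a31, a translocase of germ cells, had 0 counts in iso-osmolar medium and 3 in the other 6 libraries together.

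Among the ATP-Mg/phosphate carriers, which set the size of the adenine nucleotide pool in the matrix, Slc25a23 was higher at 500 mOsm (0.44 ± 0.11, adjusted p = 0.00842) and at 600 mOsm (0.39 ± 0.11, adjusted p = 0.0153). Its call at 600 mOsm was lost in DESeq2 and without iso-osmolar replicate 1 or 600 mOsm replicate 1. Slc25a24, the most abundant of these carriers, and Slc25a25 passed the threshold in no comparison, with log2 fold changes between -0.16 and 0.02. Slc25a41 had 3, 2 and 1 counts over the 3 libraries of each treatment and was not tested. Stretches of Slc25a23 of at least 100 bases occur at 95% identity or more in 60 other genes, so how shared reads were counted bears on its level.

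Of the carriers of carboxylates (such as citrate and malate) and acylcarnitine, 4 were tested. At 500 mOsm 1 was higher (25.0%, beside 13.2% of all genes), and 0 were called at 600 mOsm. Between the intensities 1 was higher at 600 than at 500 mOsm (25.0%, beside 11.9%). These numbers are too small to read against the background. Slc25a11, the oxoglutarate/malate carrier of the malate-aspartate shuttle, was higher at 500 mOsm (0.14 ± 0.046, adjusted p = 0.0419), and this call was lost in 18 of the 22 alternative settings. Its exons share 189 bases with those of Rnf167 on the opposite strand, and whether the counting used strand is not given in the sources used here. Slc25a1, the citrate carrier, was higher at 600 than at 500 mOsm (0.17 ± 0.060, adjusted p = 0.0442), a call lost in 12 of the 22 settings. Slc25a10, the dicarboxylate carrier, and Slc25a20, the carnitine-acylcarnitine carrier that feeds fatty acid oxidation, passed in none. Slc25a21, a carrier of oxodicarboxylates, had 0, 1 and 1 counts over the treatments.

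The pair of aspartate-glutamate carriers, which pass aspartate out of the matrix in the malate-aspartate shuttle, moved in opposite directions. Slc25a13 (citrin; ENSMUSG00000015112, chr6:6041218-6217173) had 25.8, 23.6 and 23.3 CPM in the iso-osmolar libraries, 14.5, 14.3 and 15.1 CPM at 500 mOsm and 21.6, 19.3 and 20.4 CPM at 600 mOsm. The 3 treatments did not overlap, and the lowest level was at the lower stress intensity. Slc25a13 fell by 39.6% at 500 mOsm (log2 fold change -0.73 ± 0.077, adjusted p = 1.33e-05), fell by 15.6% at 600 mOsm (-0.25 ± 0.076, adjusted p = 0.0244) and was higher at 600 than at 500 mOsm (0.48 ± 0.077, adjusted p = 0.000497). The calls at 500 mOsm and between the intensities held in all 22 alternative settings. The call at 600 mOsm was lost without iso-osmolar replicate 1, 600 mOsm replicate 2 or 600 mOsm replicate 3, with no filter on genes, and with the trends of GC content and length removed together with the replicate block.

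Slc25a12 (aralar; ENSMUSG00000027010, chr2:71271063-71367749), the aspartate-glutamate carrier best known from brain and muscle, is shown beside citrin as its paralog, a choice made after the values were seen. It had 62.5, 67.3 and 60.8 CPM in iso-osmolar medium, 72.8, 75.8 and 75.4 CPM at 500 mOsm and 79.9, 80.0 and 76.4 CPM at 600 mOsm. All treated libraries were above the iso-osmolar ones. The rise was 0.23 ± 0.053 at 500 mOsm (adjusted p = 0.00534) and 0.31 ± 0.053 at 600 mOsm (adjusted p = 0.000751), both held in all 22 settings, and the difference between the intensities was 0.08 ± 0.053 (adjusted p = 0.312). A stretch of 247 bases of Slc25a12 also occurs in Adpgk at 99.6% identity, and Adpgk held 8709 counts over the libraries beside 15934 for Slc25a12. On the FPKM scale the ratio of Slc25a13 to Slc25a12 in a library was 0.714 to 0.840 in iso-osmolar medium, 0.385 to 0.407 at 500 mOsm and 0.492 to 0.550 at 600 mOsm, with no overlap between the treatments.

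The windows from 250 bases before to 50 bases after the start of both genes are shown because the paralogs changed in opposite directions. They were taken from RefSeq on GRCm38.p6 and are written 5′ to 3′ on the strand of the gene, with Slc25a12 at chr2:71367706-71368005 and Slc25a13 at chr6:6217124-6217423, both on the minus strand. Capitals mark matches, on either strand, to a CCAAT box (CCAAT), a GC box (GGGCGG), an ETS site (CCGGAAG), a cAMP response element (TGACGTCA), an ATF4 composite site (TGATGNAA), an E-box (CACGTG) or the tonicity-responsive element TonE, the motif bound by TonEBP.
Slc25a12: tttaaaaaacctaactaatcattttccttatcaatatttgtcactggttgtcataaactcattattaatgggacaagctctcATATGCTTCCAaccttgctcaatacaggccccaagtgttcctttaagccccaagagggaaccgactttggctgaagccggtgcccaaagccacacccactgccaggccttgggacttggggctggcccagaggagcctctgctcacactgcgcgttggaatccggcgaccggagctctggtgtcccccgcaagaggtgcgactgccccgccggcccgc
Slc25a13: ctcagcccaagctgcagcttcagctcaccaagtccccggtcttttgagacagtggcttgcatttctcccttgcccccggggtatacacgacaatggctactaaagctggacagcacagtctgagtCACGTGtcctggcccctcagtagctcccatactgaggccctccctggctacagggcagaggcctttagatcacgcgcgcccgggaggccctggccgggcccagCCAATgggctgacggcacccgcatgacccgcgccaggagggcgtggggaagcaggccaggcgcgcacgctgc
In Slc25a12 the capitals are a single TonE match, and in Slc25a13 they are an E-box followed by a CCAAT box. TonE matches occur in 23.0% of the 32851 windows of all genes in the RefSeq table, E-boxes in 7.15% and CCAAT boxes in 37.4%. A match is a run of letters and not a measured binding site.

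Of 8 tested amino acid carriers, 1 was higher and 2 lower at 500 mOsm (12.5% and 25.0%, beside 13.2% and 14.8% of all genes). At 600 mOsm 1 was higher and 3 lower (12.5% and 37.5%, beside 15.1% and 20.0%). The 3 include Slc25a18, which passed the filter only through the iso-osmolar libraries. Between the intensities 1 was higher and 1 lower (12.5% each, beside 11.9% and 17.2%). These numbers are too small to read against the background. Besides Slc25a12 and Slc25a13, those called were Slc25a29, Slc25a18 and Slc25a22. Slc25a29 (ENSMUSG00000021265, chr12:108825873-108835883), a carrier of the basic amino acids arginine and lysine, had 3.60, 2.91 and 2.49 CPM in iso-osmolar medium, 1.31, 1.92 and 1.37 CPM at 500 mOsm and 2.01, 1.79 and 2.78 CPM at 600 mOsm. The 500 mOsm libraries were below all iso-osmolar ones, and the 600 mOsm libraries overlapped both. It fell by 48.4% at 500 mOsm (-0.95 ± 0.22, adjusted p = 0.00602), a call kept in all 22 settings. The values of -0.44 ± 0.21 at 600 mOsm (adjusted p = 0.135) and 0.52 ± 0.23 between the intensities (adjusted p = 0.115) did not pass.

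Slc25a18 (ENSMUSG00000004902, chr6:120773768-120793982), a glutamate carrier of brain and other tissues, was near the floor, with 0.729, 0.737 and 0.654 CPM in iso-osmolar medium, 0.328, 0.679 and 0.229 at 500 mOsm and 0.167, 0.403 and 0.309 at 600 mOsm. These are 16 to 18 counts in the iso-osmolar libraries, and it passed the filter on low counts through these libraries alone. The 600 mOsm libraries lay below the iso-osmolar ones, with 4 to 9 counts (-1.26 ± 0.43, adjusted p = 0.0364). Since a gene let in by its highest group tends to be lower elsewhere, this value is given as a description. The call was lost in DESeq2, without any of the 3 iso-osmolar libraries and without 600 mOsm replicate 1 or 3. Its exons share 32 bases with those of Atp6v1e1 on the opposite strand, a gene with 1817 to 2160 counts in each library, and without strand the reads of these bases cannot be told apart.

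Slc25a22, the other glutamate carrier, is also given by library as a choice made after the values were seen, and it had 42.4, 44.4 and 41.1 CPM in iso-osmolar medium, 38.0, 40.5 and 35.5 CPM at 500 mOsm and 34.2, 32.3 and 31.3 CPM at 600 mOsm. The treatments did not overlap. The fall at 600 mOsm passed both against iso-osmolar medium (-0.39 ± 0.068, adjusted p = 0.000846, held in all 22 settings) and against 500 mOsm (-0.22 ± 0.068, adjusted p = 0.0277). The latter call was lost without 500 mOsm replicate 1 or 2, without 600 mOsm replicate 2 or 3 and with no filter on genes, and the value at 500 mOsm against iso-osmolar medium did not pass (-0.17 ± 0.068, adjusted p = 0.0878). Slc25a15, the ornithine carrier of the urea cycle, Slc25a38, a glycine carrier needed for heme synthesis, and Slc25a44, a carrier of branched-chain amino acids, passed in no comparison, with log2 fold changes between -0.11 and 0.13. Slc25a2, a second ornithine carrier, had 0, 4 and 2 counts over the treatments.

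The carriers of iron, which bring the metal into the matrix for heme and iron-sulfur clusters, were both lower at both intensities. Of all genes tested 14.8% were lower at 500 mOsm and 20.0% at 600 mOsm, and 2 carriers are too few to read against this background. Slc25a37 (mitoferrin 1; ENSMUSG00000034248, chr14:69241848-69285112) had 48.4, 43.8 and 43.9 CPM in iso-osmolar medium, 36.8, 36.5 and 39.9 CPM at 500 mOsm and 22.6, 22.0 and 19.5 CPM at 600 mOsm. The 3 treatments did not overlap, and the level went down with each step of intensity. It fell by 16.8% at 500 mOsm (-0.27 ± 0.074, adjusted p = 0.0168) and fell by 53.0% at 600 mOsm (-1.09 ± 0.077, adjusted p = 4.44e-07), and it was lower at 600 than at 500 mOsm (-0.82 ± 0.077, adjusted p = 5.99e-06). Of the tested carriers it had the smallest p at 600 mOsm. The calls at 600 mOsm and between the intensities held in all 22 settings, and that at 500 mOsm was lost without iso-osmolar replicate 1, without 500 mOsm replicate 1 and with limma on log2(FPKM + 0.1). Stretches of Slc25a37 of 381 or 382 bases are also annotated in 3 other genes, of which the table lists 1, with 0 counts.

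Slc25a28 (mitoferrin 2; ENSMUSG00000040414, chr19:43663822-43674881), the iron carrier of non-erythroid cells, is given in full as the other mitoferrin, again a choice made after the values were seen. It had 33.1, 40.9 and 34.1 CPM in iso-osmolar medium, 29.5, 30.0 and 23.7 CPM at 500 mOsm and 26.0, 25.6 and 28.8 CPM at 600 mOsm. Each treated library was below each iso-osmolar library, and the intensities overlapped. It fell by 23.0% at 500 mOsm (-0.38 ± 0.10, adjusted p = 0.0164) and fell by 25.6% at 600 mOsm (-0.43 ± 0.11, adjusted p = 0.00764), with a difference of -0.05 ± 0.11 between the intensities (adjusted p = 0.775). The call at 500 mOsm was lost without iso-osmolar replicate 2 or 500 mOsm replicate 3. The ratio of Slc25a37 to Slc25a28 FPKM was 0.273 to 0.373 in iso-osmolar medium, 0.311 to 0.429 at 500 mOsm and 0.172 to 0.222 at 600 mOsm, so that only the 600 mOsm libraries stood apart.

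**Figure D3:**
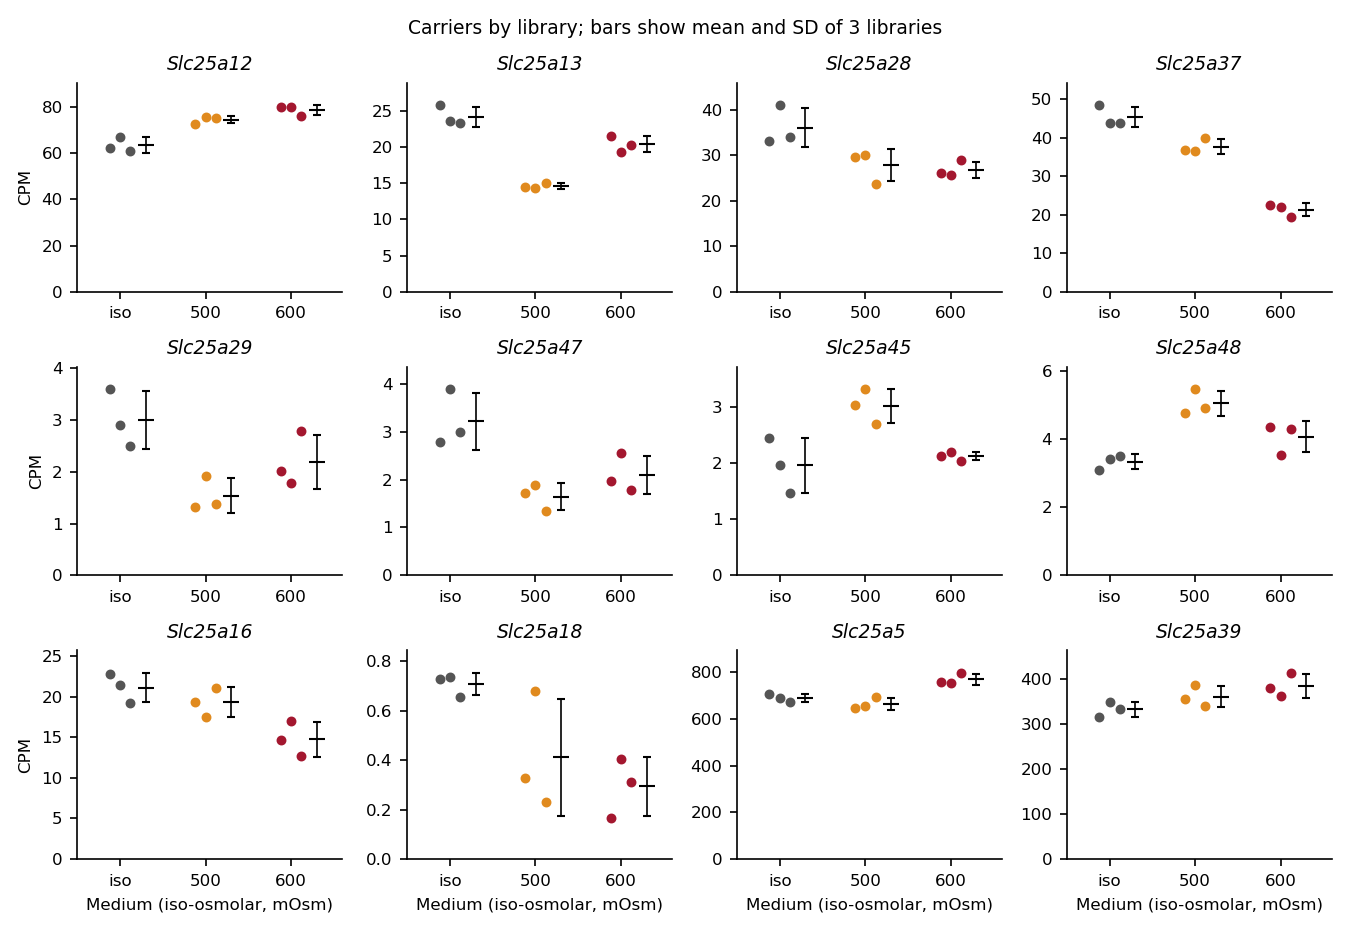
CPM of 12 carriers in each library (points, grey for iso-osmolar, orange for 500 mOsm and red for 600 mOsm), with the mean and SD of the 3 libraries of a treatment beside them. Slc25a12 and Slc25a13 move apart at 500 mOsm (72.8 to 75.8 against 14.3 to 15.1 CPM), Slc25a37 steps down with each intensity, and Slc25a45 and Slc25a48 are highest at 500 mOsm.

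**Figure D4:**
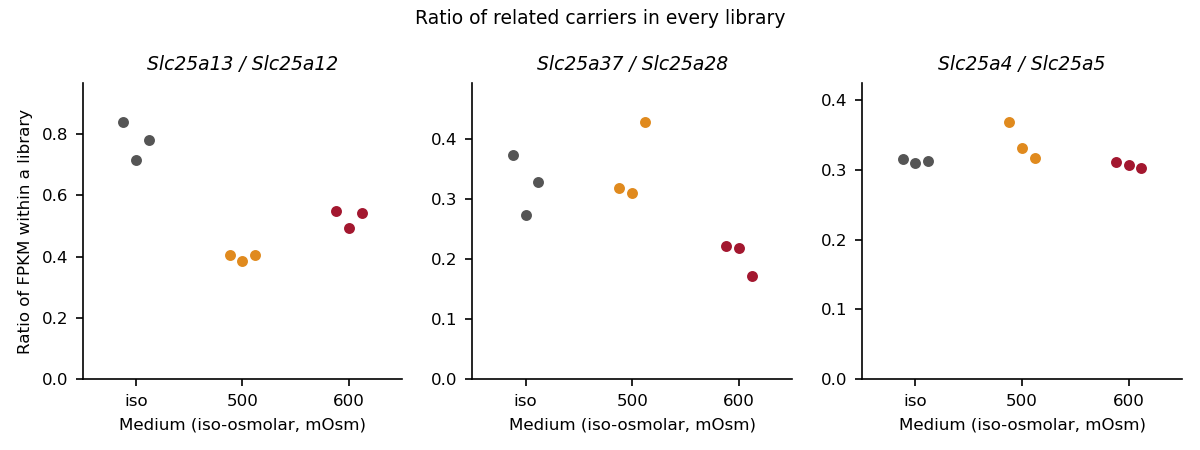
Ratio of the FPKM of Slc25a13 to Slc25a12, Slc25a37 to Slc25a28 and Slc25a4 to Slc25a5 in each of the 9 libraries, with 3 points per treatment on an axis from 0. The first ratio is lowest at 500 mOsm (0.385 to 0.407), the second at 600 mOsm (0.172 to 0.222), and the third stays between 0.302 and 0.369.

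Of the carriers of cofactors, glutathione and pyrimidine nucleotides, all 11 were tested, and 0 were higher and 1 lower at 500 mOsm (9.09%, beside 14.8% of all genes). At 600 mOsm 2 were higher and 2 lower (18.2% each, beside 15.1% and 20.0%), close to the background. Slc25a16 (ENSMUSG00000071253, chr10:62920633-62946498), linked to the uptake of coenzyme A, had 22.8, 21.4 and 19.2 CPM in iso-osmolar medium, 19.3, 17.5 and 21.1 at 500 mOsm and 14.6, 17.0 and 12.6 at 600 mOsm. The 600 mOsm libraries lay below all others. The fall at 600 mOsm passed both against iso-osmolar medium (-0.52 ± 0.11, adjusted p = 0.00372, held in all 22 settings) and against 500 mOsm (-0.39 ± 0.11, adjusted p = 0.0208), and the latter call was lost without 500 mOsm replicate 1 or 3 and without 600 mOsm replicate 1 or 3.

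Slc25a39 (ENSMUSG00000018677, chr11:102402985-102407946), which brings glutathione into the matrix, had 316, 349 and 334 CPM in iso-osmolar medium, 355, 388 and 341 at 500 mOsm and 380, 362 and 415 at 600 mOsm. The 600 mOsm libraries were above the iso-osmolar ones, and the 500 mOsm libraries overlapped both. The rise at 600 mOsm was 0.21 ± 0.063 (adjusted p = 0.0206), and it lost its call without iso-osmolar replicate 1 or 3, without 600 mOsm replicate 3, with the trend on gene length removed and with the GC content and length trends removed together with the block. Slc25a40, its paralog, passed in no comparison (-0.08 ± 0.12 at 500 mOsm and -0.09 ± 0.12 at 600 mOsm).

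Slc25a51, the NAD+ carrier, was lower at 500 mOsm (-0.22 ± 0.075, adjusted p = 0.0462) and at 600 mOsm (-0.30 ± 0.075, adjusted p = 0.00861). The call at 500 mOsm was lost in 12 of the 22 settings and that at 600 mOsm in none. Slc25a51 shares stretches of at least 100 bases with 133 other genes at 95% identity or more, so how shared reads were counted bears on its level. The carriers Slc25a17 (peroxisomal cofactors), Slc25a26 (S-adenosylmethionine), Slc25a32 (folate and FAD), Slc25a33 and Slc25a36 (pyrimidine nucleotides) and Slc25a42 (coenzyme A) passed in no comparison, with log2 fold changes between -0.27 and 0.23. Of these, Slc25a32 (-0.27 ± 0.099, adjusted p = 0.0527) and Slc25a17 (0.16 ± 0.062, adjusted p = 0.0584) just missed the threshold at 600 mOsm. In some alternative settings Slc25a32 and Slc25a33 were called lower and Slc25a17 was called higher at 600 mOsm. The relatives of the uncoupling proteins, Slc25a14, Slc25a27 and Slc25a30, passed in none either, with values between -0.26 and 0.27.

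The last group holds a protein of the outer membrane and carriers whose substrate was unsettled for long, and 7 were tested. At 500 mOsm 2 rose and 1 fell (28.6% and 14.3%, beside 13.2% and 14.8% of all genes), and at 600 mOsm 0 rose and 2 fell (28.6% lower, beside 20.0%), again too few to read against the background. Slc25a47 (ENSMUSG00000048856, chr12:108851129-108856814), best known from liver, had 2.78, 3.89 and 2.99 CPM in iso-osmolar medium, 1.72, 1.88 and 1.33 CPM at 500 mOsm and 1.97, 2.55 and 1.78 CPM at 600 mOsm. All treated libraries were below the iso-osmolar ones. It fell by 48.9% at 500 mOsm (-0.97 ± 0.20, adjusted p = 0.00288, held in all 22 settings) and fell by 35.2% at 600 mOsm (-0.63 ± 0.20, adjusted p = 0.0273), where the call was lost in DESeq2 and without iso-osmolar replicate 2 or 600 mOsm replicate 1 or 3.

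Slc25a47 and Slc25a29, the 2 carriers with the lowest log2 fold changes at 500 mOsm, are neighbours on chromosome 12, with 15246 bases between them and transcription away from each other. Among the carriers 3 further pairs lie close together: Slc25a41 and Slc25a23, Slc25a54 and Slc25a24, and Slc25a43 and Slc25a5. In none of these were both genes called in the same comparison, and Slc25a41 and Slc25a54 were not tested. The start windows of the neighbours are shown for this reason, chosen after the values were seen, with Slc25a29 at chr12:108835827-108836126 on the minus strand and Slc25a47 at chr12:108850879-108851178 on the plus strand, in RefSeq on GRCm38.p6, and with the same motifs in capitals.
Slc25a29: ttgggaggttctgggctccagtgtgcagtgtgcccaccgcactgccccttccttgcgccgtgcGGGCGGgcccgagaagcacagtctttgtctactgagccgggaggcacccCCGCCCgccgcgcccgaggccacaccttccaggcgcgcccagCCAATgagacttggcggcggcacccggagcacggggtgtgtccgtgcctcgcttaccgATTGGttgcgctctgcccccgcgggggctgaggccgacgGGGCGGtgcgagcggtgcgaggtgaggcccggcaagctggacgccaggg
Slc25a47: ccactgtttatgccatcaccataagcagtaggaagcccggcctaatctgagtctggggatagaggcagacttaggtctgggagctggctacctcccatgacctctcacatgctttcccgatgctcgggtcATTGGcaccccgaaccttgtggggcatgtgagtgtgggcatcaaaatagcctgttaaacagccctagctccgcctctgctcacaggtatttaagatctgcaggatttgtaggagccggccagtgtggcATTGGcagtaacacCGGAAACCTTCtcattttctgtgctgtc
Slc25a29 held 3 GC boxes and a CCAAT box on each strand, and Slc25a47 held 2 CCAAT boxes, both on the opposite strand, and a TonE match after the start. The GC content of the windows was 72.3% and 53.3%. The RefSeq table held 46 windows for 36 of the 47 carriers, and of these 38 had a GC box (82.6%, beside 35.7% of the windows of all genes, non-coding genes included), 22 a CCAAT box (47.8%), 14 a TonE match (30.4%), 8 an E-box (17.4%), 7 an ETS site (15.2%, beside 8.86%), 2 a cAMP response element (4.35%, beside 1.79%) and 0 an ATF4 composite site (beside 3.97%).

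Slc25a45 (ENSMUSG00000024818, chr19:5877808-5885766), a carrier of the inner membrane, had 2.46, 1.97 and 1.47 CPM in iso-osmolar medium, 3.03, 3.32 and 2.71 CPM at 500 mOsm and 2.13, 2.19 and 2.05 CPM at 600 mOsm. The 500 mOsm libraries were above all others, and the other 2 treatments overlapped. It was higher at 500 mOsm (0.63 ± 0.18, adjusted p = 0.0223), and this call was lost in DESeq2 and without iso-osmolar replicate 2 or 3 or 500 mOsm replicate 1 or 2. Between the intensities it just missed the threshold (-0.51 ± 0.18, adjusted p = 0.0533) and passed in 9 of the 22 settings.

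Slc25a48 (ENSMUSG00000021509, chr13:56438355-56474239), linked to the transport of choline, had 3.10, 3.40 and 3.52 CPM in iso-osmolar medium, 4.76, 5.47 and 4.92 CPM at 500 mOsm and 4.35, 3.54 and 4.29 CPM at 600 mOsm. The 3 treatments did not overlap, with the highest level at 500 mOsm. Against iso-osmolar medium it was higher at 500 mOsm (0.59 ± 0.13, adjusted p = 0.00398, held in all 22 settings), while 0.28 ± 0.13 at 600 mOsm (adjusted p = 0.122) and -0.31 ± 0.13 between the intensities (adjusted p = 0.0866) did not pass. Stretches of Slc25a48 of at least 100 bases occur at 95% identity or more in 5 other genes. Slc25a46, an outer membrane protein of mitochondrial fission and lipid transfer, was lower at 600 mOsm (-0.23 ± 0.083, adjusted p = 0.0437), a call lost in 17 of the 22 settings. Slc25a35, Slc25a43 and Slc25a53 passed in none. Slc25a35 had the largest positive values, 0.73 ± 0.30 at 500 mOsm (adjusted p = 0.0971) and 0.60 ± 0.31 at 600 mOsm (adjusted p = 0.153), at under 1.1 CPM in each library. All 3 of its 500 mOsm libraries and all 3 of its 600 mOsm libraries, but not its iso-osmolar ones, reached the filter on low counts. The exons of Slc25a35 share 1151 bases with those of Rangrf on the opposite strand. Stretches of at least 100 bases occur at 95% identity or more in 7 other genes, of which the 4 that were counted held 107 counts beside 157 for Slc25a35.

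Slc25a34 was below the filter and had counts in treated libraries only, with 0 counts in each iso-osmolar library, 3, 1 and 1 at 500 mOsm and 5, 7 and 4 at 600 mOsm. Against the floor of 3 counts in each iso-osmolar library, this is at least 1.72-fold higher at 600 mOsm, while the 500 mOsm libraries were at or under the floor. Slc25a34 was called higher at 600 mOsm by DESeq2 and by edgeR with no filter on genes. Slc25a54 had 3, 0 and 4 counts over the treatments, and together with Slc25a2, Slc25a21, Slc25a31, Slc25a34 and Slc25a41 it makes up the 6 carriers that were not tested.

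The family has members under other symbols. Mtch1, an outer membrane relative of the carriers, had 401, 443 and 418 CPM in iso-osmolar medium, 488, 504 and 453 at 500 mOsm and 501, 481 and 569 at 600 mOsm, with each treated library above the iso-osmolar ones (0.20 ± 0.066, adjusted p = 0.0417, and 0.30 ± 0.066, adjusted p = 0.0038). Its paralog Mtch2 did not pass (0.00 ± 0.064 and 0.01 ± 0.064). The uncoupling protein Ucp2 had 0.07 ± 0.064 at 500 mOsm (adjusted p = 0.45) and 0.15 ± 0.064 at 600 mOsm (adjusted p = 0.0952), and Ucp1, of brown fat, and Ucp3, of muscle, had too few counts to be tested.

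Genes that serve the carriers were counted in lists. Of 12 tested genes of carrier import and insertion (TIM22, small TIM and TOM subunits), 0 were higher and 2 lower at 500 mOsm (16.7% lower, beside 14.8% of all genes). At 600 mOsm 2 were higher and 1 lower (16.7% and 8.33%, beside 15.1% and 20.0%), and between the intensities 1 was higher and 0 lower (8.33% higher, beside 11.9%). Of 19 tested genes of other inner membrane transport (pyruvate carrier, sideroflexins, calcium uniporter and ABC transporters), 2 were higher at 500 mOsm (10.5%, beside 13.2%), 7 at 600 mOsm (36.8%, beside 15.1%) and 3 at 600 against 500 mOsm (15.8%, beside 11.9%), with 0 lower in each, where 14.8%, 20.0% and 17.2% of all genes were lower. Their median log2 fold changes were 0.07, 0.15 and 0.09. Among them Sfxn4, a sideroflexin of iron-sulfur cluster metabolism, was higher at 600 than at 500 mOsm (1.01 ± 0.30, adjusted p = 0.0237) at under 1.3 CPM in each library. The 3 voltage-dependent anion channels of the outer membrane were called in no comparison. Of 9 tested regulators of mitochondrial biogenesis, 0 were higher and 3 lower at 500 mOsm (33.3% lower, beside 14.8%), 1 higher and 3 lower at 600 mOsm (11.1% and 33.3%, beside 15.1% and 20.0%), and 2 higher and 2 lower between the intensities (22.2% each, beside 11.9% and 17.2%). No test was made of these shares.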

How the data were processed

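Poly-T selected mRNA was sequenced as paired-end reads on an Illumina HiSeq instrument, per the study's methods, and the submitters' processing notes name CASAVA 1.8, STAR and the build mm10. The counting tool and its use of strand are not given in the sources used here. The authors deposited, for each of 9 libraries, counts of reads per gene without normalization and FPKM, which equals the count divided by gene length and library total. Their normalized means, fold changes and p-values of the 3 comparisons were not used.

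Counts of all 35275 genes were filtered with filterByExpr, normalized by TMM and fitted with treatment as the factor in edgeR 4.0.16 (R 4.3.3, quasi-likelihood test, 13082 genes, Benjamini-Hochberg adjustment, threshold 0.05). The standard error is the log2 fold change divided by the square root of F. The common coefficient of biological variation was 0.0756, and the carriers' log2 fold changes had a median standard error of 0.0818 to 0.0830. The script was tested on simulated data. Carriers with an adjusted p under 0.05 and a log2 fold change of 0.5 or more in size in a comparison, and the 3 with the highest FPKM, are given by library, and other carriers by group, except Slc25a12, Slc25a22 and Slc25a28. Values of 1 tested carrier are not reported here, while the counts of carriers include it. Members and lists were chosen with earlier results of these data known.

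The alternatives were library size alone or RLE factors, no filter or 10 counts in every library, fits limited to the groups compared, DESeq2 1.42.0, a replicate block, an adjusted p under 0.01, limma 3.58.1 on log2(FPKM + 1) or log2(FPKM + 0.1), removal of the gene length trend, and each of 9 libraries left out. Removal of GC content and length trends, with and without the block, was added after the data were seen and makes 22 settings per carrier. Counts of carriers were also taken with a log2 fold change of 1 or more in size. Shared sequence was searched with blastn 2.17.0 in GENCODE M21 transcripts.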

Additional observations from a re-analysis of the deposited data

How the results depend on the processing

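The groups share replicate numbers. Deviations from the treatment mean had a mean correlation of -0.242 over 9 pairs of same-numbered libraries (-0.689 to 0.611, across 8585 genes). Differently numbered ones had 0.123 over 18 pairs (-0.321 to 0.606). Since deviations within a treatment sum to 0, these 2 means are tied to each other, and they cannot decide whether the numbers pair the libraries. Some libraries of different treatments deviated together. With the replicate block 4 carriers were higher and 5 lower at 500 mOsm, 5 higher and 8 lower at 600 mOsm, and 2 higher and 3 lower between the intensities. Of the 13082 genes, 3111 were then called in either direction at 500 mOsm, 3798 at 600 mOsm and 3089 between the intensities. With an adjusted p under 0.01 the counts of carriers, in the same order, were 3, 3, 2, 5, 2 and 1. With a log2 fold change of 1 or more in size they were 0, 0, 0, 2, 0 and 0. Of all genes, 2466, 2846 and 2352 passed the stricter p in the 3 comparisons, and 1122, 742 and 857 passed with the fold change. DESeq2 called 3 carriers higher at 500 mOsm, and 3688 of all genes in either direction. The count of carriers lower at 600 than at 500 mOsm was 5 with limma on log2(FPKM + 1) and with the gene length trend removed. It was also 5 with the GC content and length trends removed, without or with the block. All genes called in either direction between the intensities numbered 3619, 3280, 4094 and 3576 in these settings, in the same order. Over the fits without 1 library, all genes called in either direction numbered 3156 to 3895 at 500 mOsm, 3567 to 4692 at 600 mOsm and 2950 to 3890 between the intensities. The carriers higher and lower at 500 mOsm numbered 3 to 4 and 4 to 7, those at 600 mOsm 3 to 7 and 5 to 10, and those between the intensities 2 to 3 and 1 to 4. The count higher at 500 mOsm was 3 without iso-osmolar replicate 2 or 3 or 500 mOsm replicate 1 or 2, that higher at 600 mOsm was 3 without iso-osmolar replicate 3 or 600 mOsm replicate 3, that lower at 600 mOsm was 5 without 600 mOsm replicate 3, and that lower at 600 than at 500 mOsm was 1 without 500 mOsm replicate 1 or 600 mOsm replicate 3. In these fits Slc25a45 at 600 mOsm ranged from -0.055 (without iso-osmolar replicate 3) to 0.30 and Slc25a18 between the intensities from -0.79 to 0.082 (without 500 mOsm replicate 2), so that their signs reversed, neither having passed the threshold. The causes were not tested. The values followed under the alternatives were those of the carriers chosen by change or level, and of other carriers only where called in the main fit. Of these values, 883 kept their direction and side of the threshold, 133 lost their call and 12 gained one. Since uncalled values of the other carriers were left out, the losses and gains cannot be weighed against each other. At 3 libraries per treatment, carriers under about 1 CPM had standard errors of up to 0.463.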
